A study of Oryza sativa with 18 samples.

Results

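Leaves of the rice varieties P28 and HHZ were compared before any drought was imposed. HHZ, an indica variety and the drought-sensitive recurrent parent, and P28, a tolerant indica variety and the donor parent, were grown in greenhouse pots and sampled at the tillering stage. A line named H471, which carries segments of P28 in an HHZ background, was sampled with them, and each of the 3 genotypes was measured well-watered (control) and after 1 and 3 days of drought, counted once the soil had dried to a set water content. The 18 RNA-seq libraries, 2 for each genotype and condition, are pooled in a table of 9 columns of FPKM (fragment counts that the authors normalized for transcript length and library size), and per the labels the RNA of 3 independent replicates was itself pooled before sequencing. A gene was taken as tested when the P28 control column, the HHZ control column or both reached 1 FPKM, which held for 18687 of the 39049 genes in the table. Each control column pools 2 libraries into 1 value, so the control comparison has no replicate error, no SD and no p-value. A gene was counted as higher or lower in P28 when log2((P28 + 1)/(HHZ + 1)) was at least 1 away from 0.

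Plants detect microbes through 2 layers of receptors. Kinases that span the plasma membrane, among them the wall-associated, cysteine-rich, lectin and leucine-rich repeat receptor kinases, sense cell wall fragments or microbial molecules outside the cell, and NB-ARC proteins act as intracellular receptors for pathogen effectors. These families lie in tandem arrays in the rice genome and differ in gene content between varieties, so that an array can hold near-identical copies whose reads the counting may have split. Rice leaves also make diterpenoid phytoalexins, the momilactones and phytocassanes, whose enzymes are encoded in clusters on chromosomes 4 and 2.

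The 2 parents were close at most genes. The median log2 difference over the 18687 genes was -0.0021, the 5th and 95th percentiles were -0.74 and 0.95, and 79.7% of genes lay within 0.5 of 0. Past the size rule were 857 genes that were higher in P28, which is 4.59% of the genes tested, and 635 that were lower, which is 3.40%, together 7.98%. The median difference was 1.49 among the former and -1.57 among the latter. The rule falls within a continuous distribution: where 1 parent reached 5 FPKM, LOC_Os06g12150 at 1.001 and LOC_Os01g27340 at -1.0003 were the last inside it and LOC_Os05g46350 at 0.9991 and LOC_Os01g72900 at -0.998 the first outside. By expression, the rule was passed by 11.7% of the 4838 genes whose higher value was between 1 and 5, 7.03% of the 10837 between 5 and 50, and 5.38% of the 3012 at 50 or more. Genes for which the table gives no description were 41.3% of those higher in P28 and 40.3% of those lower, against 19.5% of all genes tested.

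**Figure D1:**
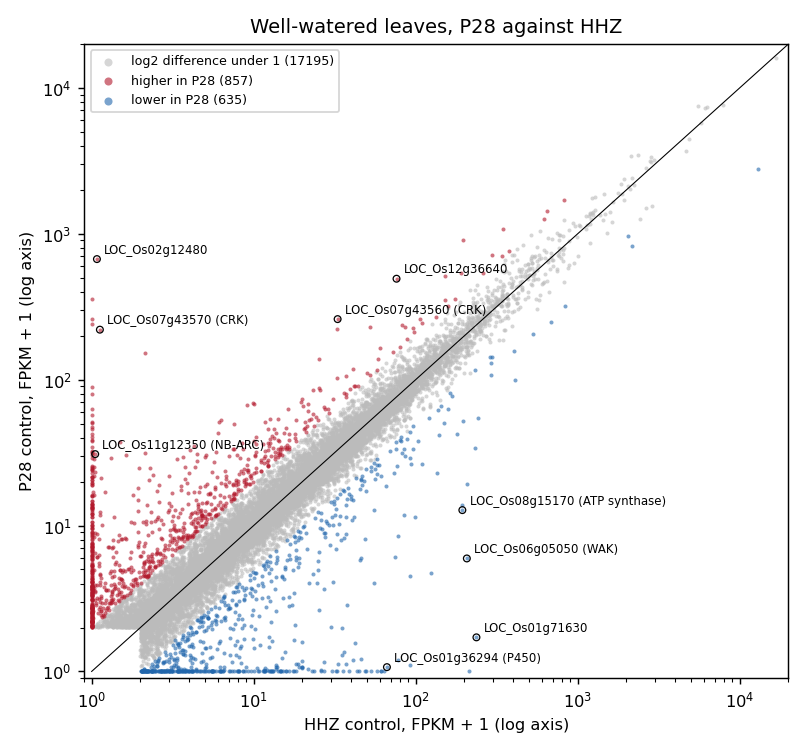
FPKM + 1 of the 18687 genes tested in the pooled HHZ control column (x axis, log scale) and the pooled P28 control column (y axis, log scale), with the 857 genes higher in P28 in red, the 635 lower in blue and the line of equality in black. CRK, WAK and P450 stand for cysteine-rich receptor-like kinase, wall-associated kinase and cytochrome P450, and the points along the left and lower edges are genes listed at 0 in 1 parent.

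Many of the genes that differed were listed at 0 in 1 parent. In the control, 254 of the 857 genes higher in P28 (29.6%) were listed at 0 in HHZ, and 195 of the 635 lower (30.7%) were listed at 0 in P28. Some of these genes had reads in the same parent under drought. LOC_Os07g13950 had 15.3 and 41.2 FPKM in HHZ on the drought days, and LOC_Os11g33380 had 2.25 and 6.38 in P28. Reads were aligned to the reference genome of another variety. For a gene listed at 0 in every column of a parent, silence, absence and a sequence too different to be aligned cannot be told apart.

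The gene with a described function that differed most was LOC_Os07g43570 on chromosome 7, a cysteine-rich receptor-like kinase. In well-watered leaves and on the drought days 1 and 3, in that order, HHZ had 0.124, 0.397 and 0.286 FPKM, whereas P28 had 219, 36.6 and 323. Its neighbour LOC_Os07g43560, of the same family, had 32.0, 11.9 and 14.3 FPKM in HHZ and 259, 108 and 283 in P28. Both genes were thus higher in P28 in every condition, and both were named for their control difference. In the introgression line H471 they were at 206 and 244 FPKM in the control, close to P28. To use all the columns, those of H471 included, limma was fitted to log2(FPKM + 1) with terms for genotype and condition. The conditions thus stand in for replicates. A change between conditions that the genotypes share is taken up by the condition term. A p-value for P28 minus HHZ thus sets that difference against how far the differences among all 3 genotypes vary between conditions. A departure of H471 in 1 condition also enters it. In that fit the P28 minus HHZ difference was 6.78 (SE 0.60, adjusted p = 0.000977) for LOC_Os07g43570 and 3.42 (SE 0.23, adjusted p = 0.000268) for LOC_Os07g43560. The qPCR primers that the study designed for the pair are shown because they are the oligos with which the study addressed these neighbouring copies, with 1 pair for LOC_Os07g43570 and 2 for LOC_Os07g43560, 5′ to 3′ and all in lower case.
LOC_Os07g43570 forward: gttccattaccttcggggc
LOC_Os07g43570 reverse: accccatccatttctatcgtta
LOC_Os07g43560 forward, first pair: aaccataccctgtaaccga
LOC_Os07g43560 reverse, first pair: cctgaaaatacaataaatacacaa
LOC_Os07g43560 forward, second pair: tcaccttgtcactccctcc
LOC_Os07g43560 reverse, second pair: acagctcaacattgtgcgt

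The limma fit over the 3 conditions called 1366 of 20568 genes (6.64%), of which 748 (3.64%) were higher in P28 and 618 (3.00%) lower, at a Benjamini-Hochberg adjusted p under 0.05. Among the genes past the size rule in the control, it called 398 of the 857 higher and 312 of the 635 lower. The fit includes the control columns that chose these genes, so the calls are not independent of the size rule. The same holds for the adjusted p of each gene named for its control difference. The largest differences it called belonged to genes without a description. In the order control, 1 day and 3 days, LOC_Os02g12480 had 0.0778, 0.301 and 0.337 FPKM in HHZ and 669.6, 320.3 and 323 in P28. LOC_Os06g05440 was at 0 FPKM in the HHZ control and did not exceed 0.586 on the drought days, against 355, 445 and 365 FPKM in P28. LOC_Os12g22870 was listed at 0 in every HHZ column and had 259, 135 and 75.01 FPKM in P28. In the other direction, LOC_Os01g71630 had 236, 343 and 250.2 FPKM in HHZ and at most 0.713 in P28, and LOC_Os09g06950 had 91.0, 56.8 and 120.5 in HHZ and at most 0.1001 in P28. None of these levels overlapped between HHZ and P28. The genes were chosen for large differences over these same columns, so this is no separate support. For LOC_Os01g71630 limma gave -7.57 (SE 1.39, adjusted p = 0.0228). Its H471 values of 139, 0.209 and 0.554 FPKM in the same order enter that SE.

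The parents differed at many receptor genes. The 6 receptor lists together (NB-ARC, leucine-rich repeat, wall-associated, cysteine-rich, lectin and receptor-like proteins) held 621 of the genes tested, of which 70 were higher in P28 and 71 lower, 22.7% in all against 7.98% of all genes. They made up 13.9% of the described genes higher in P28 and 18.7% of those lower, and 4.13% of all described genes tested. The median of the lists together was 0.14. No test was made of any list, since the lists were drawn up with results of these data known.

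**Figure D2:**
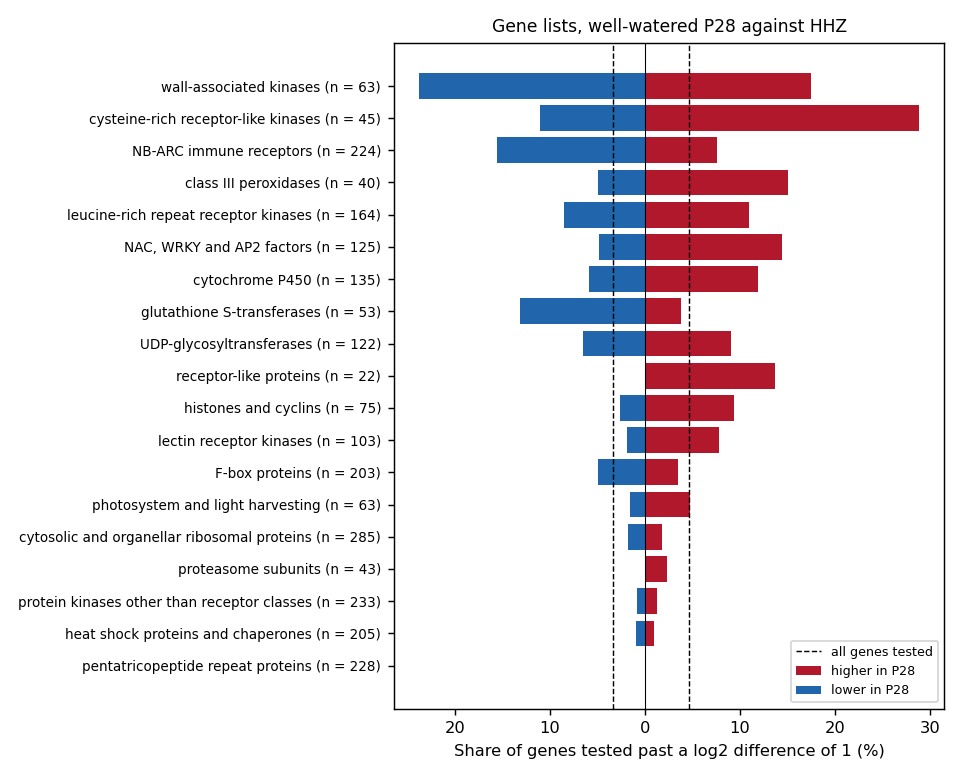
Share of the genes tested in each of 19 gene lists with at least 20 genes tested that were higher in P28 (red, right) or lower in P28 (blue, left) by at least 1 on the log2 scale in the control. Dashed lines mark the shares over all genes tested, 4.59% and 3.40%; wall-associated and cysteine-rich kinases reach furthest and the pentatricopeptide repeat proteins have no bar.

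Wall-associated kinases, which bind pectin in the cell wall, had the highest share past the rule among the lists with at least 20 genes tested, with 11 of 63 genes higher in P28 and 15 lower, at a median of 0.17. LOC_Os06g05050 had 206, 115 and 20.9 FPKM in HHZ and 4.95, 3.93 and 3.48 in P28, which limma called at -3.99 (SE 0.60, adjusted p = 0.0102). LOC_Os04g21820 had 36.7, 9.66 and 15.4 FPKM in HHZ and 1.85, 1.37 and 1.03 in P28. In both, every HHZ value was above every P28 value, but neither gene was chosen independently of these columns. LOC_Os12g16540 was listed at 0 in all HHZ columns and had 28.2, 9.89 and 4.58 FPKM in P28 (limma 3.60, SE 0.45, adjusted p = 0.00472), and the nearby LOC_Os12g16520 was also listed at 0 in HHZ, with 10.5, 2.88 and 1.54 in P28. LOC_Os02g42190 had 0.0285 FPKM in the HHZ control and 24.1 in P28, but only 3.44 and 0.675 in P28 on the drought days, and limma did not call it (adjusted p = 0.115). The most abundant member past the rule, LOC_Os10g10130, had 151 FPKM in HHZ and 352 in P28 in the control, while after 1 day the order was turned, with 123 and 106.

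A cluster of wall-associated kinases on chromosome 4 was lower in P28. LOC_Os04g29790 had 26.3 FPKM in the HHZ control, LOC_Os04g30060 had 14.9, LOC_Os04g30110 had 13.7 and LOC_Os04g30160 had 8.25, and all 4 were listed at 0 in the P28 control. LOC_Os04g30240 followed with 36.0 against 0.121. These genes were low in the HHZ drought columns too: LOC_Os04g29790 had 2.17 and 0.196 FPKM there after 1 and 3 days, and LOC_Os04g30060 had 0.468 and 0.0608. limma called none of the 5, with an adjusted p of 0.208 for LOC_Os04g29790 and 0.0841 for LOC_Os04g30240. The cysteine-rich kinases LOC_Os04g30030 and LOC_Os04g30040 lie in the same stretch, with 76.5 and 44.1 FPKM in the HHZ control and 7.53 and 4.82 in P28. H471 had intermediate values for both in the control, 28.7 and 9.17.

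Cysteine-rich receptor-like kinases, membrane kinases linked to redox and pathogen signals, had the highest share above HHZ among the lists of that size, with 13 of 45 genes higher in P28 and 5 lower at a median of 0.50. A second group of them on chromosome 7 was higher in P28 together: LOC_Os07g35390 had 2.08 FPKM in the HHZ control and 12.7 in P28, LOC_Os07g35370 had 8.63 and 20.1, LOC_Os07g35340 had 1.54 and 5.87, and LOC_Os07g35380 was listed at 0 in HHZ and at 5.28 in P28. The level of all 4 was at most 3.51 FPKM in either parent on the drought days. LOC_Os01g23970 had 3.00 FPKM in HHZ and 21.8 in P28 in the control, with 0.812 and 1.95 after 1 day and 0.835 and 3.797 after 3 days (limma 1.53, SE 0.31, adjusted p = 0.0325). Past the rule on both drought days as well were 3 of the 13 higher genes and 1 of the 5 lower, against 34.9% of all higher and 38.6% of all lower genes.

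NB-ARC receptors showed the opposite balance, with 17 of 224 genes higher in P28 and 35 lower at a median of 0.00095. Also past the rule on both drought days were 15 of the 17 and 21 of the 35, against 34.9% of all higher and 38.6% of all lower genes. LOC_Os11g12350 had 0.0515 FPKM in the HHZ control and 29.9 in P28, with 29.7 and 21.7 in P28 on the drought days (limma 4.74, SE 0.14, adjusted p = 7.72e-06). LOC_Os11g12050, on the same chromosome, had 0.144 and 20.1. In the other direction LOC_Os12g33160 had 18.9, 16.9 and 15.8 FPKM in HHZ and at most 0.0601 in P28 (limma -4.12, SE 0.13, adjusted p = 7.72e-06), and LOC_Os08g07330 had 18.1 against 0.0643 in the control. LOC_Os11g11960 was the most abundant, at 124 FPKM in the HHZ control and 3.70 in P28, but HHZ had only 11.5 and 8.17 on the drought days and limma did not call it (adjusted p = 0.137). Neighbouring NB-ARC genes on chromosome 11 went in both directions, since LOC_Os11g11940 and LOC_Os11g11950 were higher in P28, at 19.9 and 26.6 FPKM against 2.79 and 3.50.

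Leucine-rich repeat receptor kinases had 18 of 164 genes higher in P28 and 14 lower, at a median of 0.12. LOC_Os09g19400, part of a run on chromosome 9, had 31.6 FPKM in the HHZ control and was listed at 0 in P28, and HHZ had 2.37 and 0.728 on the drought days. LOC_Os02g12420 had 0.213 FPKM in the HHZ control and 16.0 in P28, and LOC_Os10g33130 had 0.128 and 10.8, with limma adjusted p-values of 0.0454 and 0.00154. LOC_Os08g07774, described as a somatic embryogenesis receptor kinase, a class of co-receptor for hormone and immune signals, had 45.1, 32.5 and 11.2 FPKM in HHZ and at most 0.221 in P28 (limma -4.52, SE 0.85, adjusted p = 0.0249). Its H471 values of 22.9, 0.0571 and 0.215 FPKM enter that SE. Lectin receptor kinases were higher in P28 in 8 of 103 genes and lower in 2, at a median of 0.27; LOC_Os09g16950 had 4.86 FPKM in HHZ and 30.7 in P28 and LOC_Os04g22120 had 7.41 and 22.6. Of the 22 receptor-like proteins, which lack the kinase domain, 3 were higher in P28 and 0 lower.

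**Figure D3:**
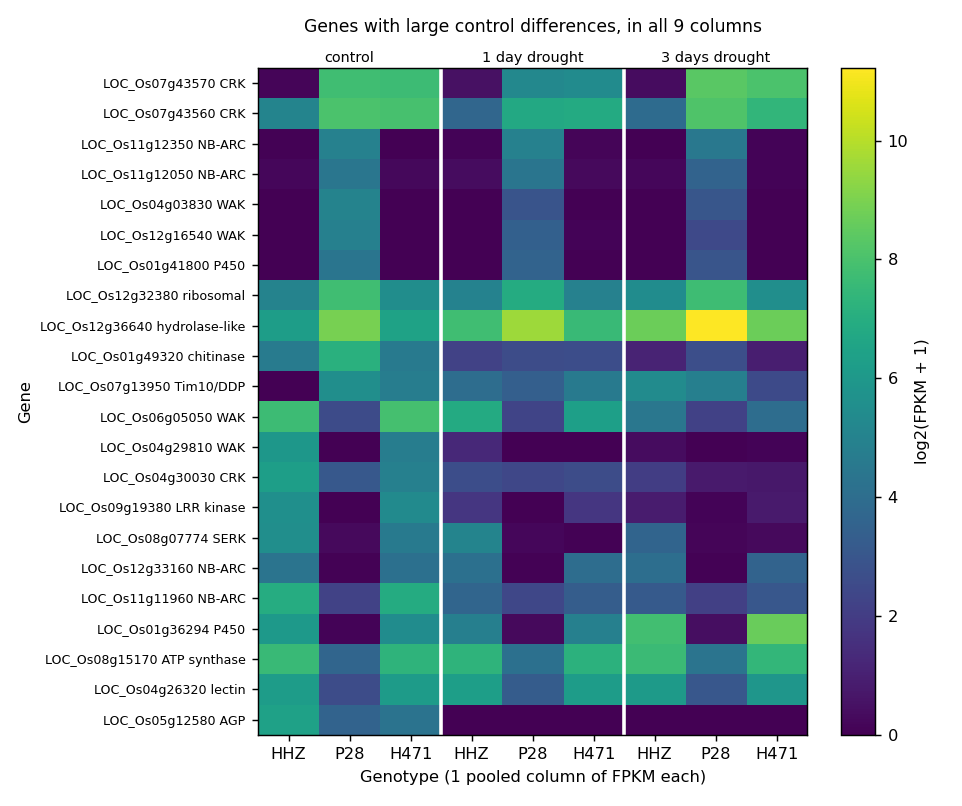
log2(FPKM + 1), as colour, of 22 genes with large control differences between P28 and HHZ in the 9 pooled columns, ordered by condition and genotype; CRK, WAK, LRR, SERK and AGP stand for cysteine-rich, wall-associated, leucine-rich repeat and somatic embryogenesis receptor kinases and arabinogalactan protein. LOC_Os07g43570 and LOC_Os07g43560 are near the level of P28 in H471, although LOC_Os07g43560 had 166 FPKM in H471 after 3 days against 283 in P28. LOC_Os11g12350 and LOC_Os04g03830 are at or near 0 in H471, and the chitinase and AGP rows are brightest in the control columns.

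Some of the genes listed for diterpenoid phytoalexins were higher in P28 in the control. Of the 10 listed, all tested, 5 were past the rule and higher in P28 and 0 were lower, at a median of 1.26. Over all genes tested 4.59% were higher and 3.40% lower. The list was drawn up with results of these data known, and no test was made of it. For the momilactone cluster on chromosome 4, CPS4 (LOC_Os04g09900), which makes the syn-copalyl diphosphate precursor, had 2.68 FPKM in HHZ and 28.7 in P28, and KSL4 (LOC_Os04g10060), the next cyclase, had 0.734 and 4.95. The oxidases CYP99A3 (LOC_Os04g10160) and CYP99A2 (LOC_Os04g09920) were at 3.47 and 2.25 FPKM in HHZ and 29.7 and 11.8 in P28. MAS (LOC_Os04g10010), the last enzyme of the route, was at 3.42 and 4.52 and did not pass. On chromosome 2, CYP76M7 (LOC_Os02g36110), an oxidase of the phytocassane route, had 0.451 and 6.85 FPKM, whereas its cyclases CPS2 (LOC_Os02g36210) and KSL7 (LOC_Os02g36140) had 18.4 and 28.7, and 158 and 199.5. H471 lay between the parents for 6 of the 10 genes, among them CPS4, at 5.90 FPKM, and CYP99A3, at 12.5. It was above both for MAS, at 15.2, CPS2, at 38.5, and CYP76M8 (LOC_Os02g36070), at 1.71, and below both for CYP71Z7 (LOC_Os02g36190), at 3.85. By description, 15 terpene synthesis genes were tested, some of them also of this pathway, with 3 higher and 2 lower.

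None of these 5 genes was past the rule on a drought day. CPS4 had 0.0759 FPKM in HHZ and 0.840 in P28 after 1 day, and CYP99A3 had 0.0779 and 0.358. Of the other members, CYP71Z7 was past the rule and higher in P28 after 1 day, with 0.464 and 2.74 FPKM, and CPS2 past it and lower, with 8.46 and 3.72. No gene of the list was called by limma over the 3 conditions, and the adjusted p was 0.186 for CPS4 and 0.252 for CYP99A3.

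**Figure D4:**
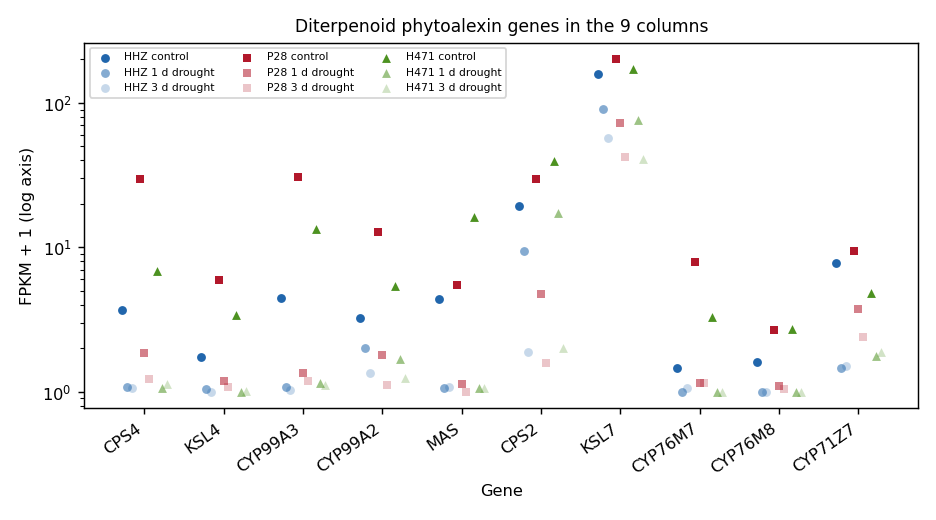
FPKM + 1 (y axis, log scale) of 10 diterpenoid phytoalexin genes (x axis) in HHZ (blue circles), P28 (red squares) and H471 (green triangles), with the strongest colour for control and paler ones for 1 and 3 days of drought; each point is 1 pooled column. In the control P28 stands above HHZ for CPS4, KSL4, CYP99A3, CYP99A2 and CYP76M7, and on the drought days these genes lie near the bottom in every genotype.

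Genes of other defence-related classes differed in both directions. LOC_Os01g49320, a chitinase, an enzyme class that degrades the chitin of fungal cell walls, had 24.5 FPKM in the HHZ control and 138 in P28, and 3.58 and 5.12 after 1 day. LOC_Os01g28450, a pathogenesis-related protein 1 gene, was lower in P28, with 682 and 247 FPKM in the control. Over all genes tested, 4.59% were higher in P28 and 3.40% lower. WRKY transcription factors, regulators of defence genes, were higher in P28 in 10 of 58 genes tested (17.2%) and lower in 1 (1.72%), at a median of 0.25. Examples are LOC_Os05g39720, with 8.25 and 27.4 FPKM, LOC_Os01g61080, with 15.6 and 41.5, and LOC_Os02g08440, with 26.0 and 63.8, while the 1 lower gene was LOC_Os01g40260, with 44.3 and 16.8. Of the 10 higher WRKY genes, 1 was also past the rule on both drought days, against 34.9% of all higher genes. Over the 3 conditions limma called 4 WRKY genes higher in P28 and 0 lower, among them LOC_Os01g61080 (adjusted p = 0.0198) and LOC_Os05g39720 (adjusted p = 0.0344), but not LOC_Os02g08440 (adjusted p = 0.968). WRKY, NAC and AP2 factors together, 125 genes, were higher in 18 and lower in 6, with 1 and 0 of these past the rule on both drought days. NAC factors were higher in 6 of 53 and lower in 4, with LOC_Os07g04560 at 4.90 and 20.4 and LOC_Os12g03050 at 14.4 and 3.31. Class III peroxidases, secreted enzymes of the cell wall, were higher in 6 of 40 and lower in 2, with LOC_Os07g48010 at 19.0 and 65.0 FPKM and LOC_Os01g73170 at 119 and 53.6. Past the rule on both drought days were 0 of the 6 and 0 of the 2.

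Enzymes that modify small molecules differed in both directions. Cytochrome P450 genes were higher in P28 in 16 of 135 and lower in 8, at a median of 0.14. The shares over all genes tested, for these and the next lists, were 4.59% higher and 3.40% lower. LOC_Os01g41800 was listed at 0 in all HHZ columns and had 19.5, 11.0 and 6.89 FPKM in P28 (limma 3.64, SE 0.27, adjusted p = 0.000474), LOC_Os07g29960 had 1.13 FPKM in the HHZ control and 30.5 in P28, and LOC_Os01g43750 had 411 and 98.1. UDP-glycosyltransferases, which attach sugars to hormones and secondary metabolites, were higher in 11 of 122 and lower in 8. The pair LOC_Os05g42060 and LOC_Os05g42040 stood at 0 and 1.29 FPKM in the HHZ control and 23.9 and 23.6 in P28, while LOC_Os10g24090 had 10.8, 14.7 and 19.8 in HHZ and was listed at 0 in all P28 columns. Glutathione S-transferases, which conjugate toxic compounds to glutathione, were higher in 2 of 53 and lower in 7. LOC_Os10g38600 had 134 FPKM in the HHZ control and 21.8 in P28, and LOC_Os07g28480 had 5.28 and 51.8. Also past the rule on both drought days were 8 higher and 2 lower P450 genes, 1 and 4 glycosyltransferases, and 0 and 1 glutathione S-transferases. Over all genes these were 34.9% of the higher and 38.6% of the lower.

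Among genes expressed in both parents at an FPKM of at least 5, the largest differences were found in scattered functions. LOC_Os12g36640, described as an adenine nucleotide alpha hydrolase-like protein, had 75.2, 221 and 414 FPKM in HHZ and 491, 769.5 and 2389 in P28 (limma 2.34, SE 0.17, adjusted p = 0.000378). LOC_Os12g32380, a ribosomal protein of the S14 family, had 31.9, 30.7 and 42.7 in HHZ and 222, 118 and 215 in P28 (limma 2.33, SE 0.15, adjusted p = 0.000198). LOC_Os11g05700, an ABC transporter of the multidrug resistance class, had 8.15 FPKM in the HHZ control and 66.1 in P28. For each of the 3, the lowest P28 value was above the highest HHZ value, although the control values were those that chose the genes.

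Lower in P28 was LOC_Os08g15170, an epsilon chain of ATP synthase, with 193, 159 and 197 FPKM in HHZ and 11.8, 16.8 and 18.9 in P28 (limma -3.47, SE 0.15, adjusted p = 2.54e-05). LOC_Os04g26320, a mannose-binding lectin, had 73.4, 77.1 and 68.2 in HHZ and 5.12, 8.73 and 7.31 in P28 (limma -3.22, SE 0.14, adjusted p = 3.49e-05). In both genes each HHZ value was above each P28 value, with the same limit that the control values chose them. LOC_Os11g34940, a plastid ribosomal protein, had 231, 122 and 191 FPKM in HHZ and 33.3, 21.6 and 19.2 in P28, and LOC_Os08g13930, paired in the table with Arabidopsis VTC1, an enzyme that makes GDP-mannose for ascorbate and cell wall synthesis, had 44.7 and 5.01 in the control. By contrast LOC_Os02g50330, RNA-dependent RNA polymerase 1, which takes part in antiviral silencing, had 47.5 FPKM in the HHZ control and 7.13 in P28 but between 1.21 and 2.99 in both parents on the drought days. LOC_Os05g12580, an arabinogalactan protein of the cell wall, had 84.2 and 10.9 in the control and was listed at 0 in both parents under drought.

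Further groups are given by their counts, to be set beside 4.59% higher in P28 and 3.40% lower over all genes tested. None of the 228 pentatricopeptide repeat proteins, which edit and process organelle RNA, passed the rule in the control, although limma called 1 higher and 2 lower over the 3 conditions. Heat shock proteins and chaperones were higher in 2 of 205 and lower in 2, ribosomal proteins higher in 5 of 285 and lower in 5, proteasome subunits higher in 1 of 43 and lower in 0, and protein kinases outside the receptor classes higher in 3 of 233 and lower in 2. F-box proteins, which select targets for degradation, were higher in 7 of 203 (3.45%) and lower in 10 (4.93%), near the shares over all genes. Aquaporins, which carry water across membranes, were higher in 0 of 18 and lower in 1. The 8 transposase-like proteins had 0 higher and 1 lower. Photosystem and light-harvesting genes were higher in 3 of 63 and lower in 1, at a median of 0.18. Of these, LOC_Os08g35420 and LOC_Os02g24642 are nuclear loci described as reaction center proteins A and K of photosystem II, which the chloroplast genome encodes, so that reads of the plastid genes and of nuclear copies cannot be told apart. They had 20.5 and 5.71 FPKM in the P28 control and were listed at 0 in HHZ.

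The circadian clock genes were at like levels in the control columns of both parents, none of the 9 past the rule, with a median difference of 0.02. GI (LOC_Os01g08700) had 538 FPKM in HHZ and 536 in P28, LUX (LOC_Os01g74020) had 493 and 559.9, and LHY (LOC_Os08g06110) had 1.49 and 1.53. Between conditions the same genes varied, and after 1 day LHY was at 389 and 426 FPKM and LUX at 1.20 and 1.59. The part of sampling time in differences between the control and drought columns was not tested. Of the flowering genes, Hd3a (LOC_Os06g06320), a florigen made in leaves, had 0.416 FPKM in HHZ and 5.63 in P28 in the control and 0 and 1.95 after 1 day. Hd3a was not called by limma (adjusted p = 0.145). Dehydrins and other genes induced by abscisic acid were nearly silent in both parents before drought: RAB16A (LOC_Os11g26790) had 0 FPKM in HHZ and 0.323 in P28, and LEA3 (LOC_Os05g46480) had 0 and 0.512. The 4 listed jasmonate synthesis genes (AOS1, AOS2, AOC and OPR7) and the 3 listed gibberellin genes did not pass the rule in either direction. OPR7 (LOC_Os08g35740) had 52.8 and 63.6 FPKM and SLR1 (LOC_Os03g49990) 26.3 and 32.4. Outside these lists, some jasmonate-related genes that the study named did pass. JAZ1 (LOC_Os03g08320) had 3.62 FPKM in HHZ and 16.0 in P28, MFP2 (LOC_Os05g06300) 1.58 and 0, and the lipoxygenase LOC_Os12g37260 17.1 and 5.12. JAZ7, DOX1, ACX, fadA and the lipoxygenase LOC_Os03g49380 did not.

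The tissue label was checked against markers. A rubisco small subunit gene (LOC_Os12g17600) had 2815 FPKM in the HHZ control and 3381 in P28, and the endosperm marker Wx (LOC_Os06g04200) had 0.303 and 0.403. Glutelin LOC_Os10g26060 had 4.19 and 4.28 FPKM, and of the root silicon transporters Lsi1 (LOC_Os02g51110) had 7.69 and 10.4 and Lsi2 (LOC_Os03g01700) was listed at 0. In the HHZ column after 1 day of drought, however, the endosperm genes were higher, with Wx at 4.51 FPKM and the glutelin LOC_Os01g55690 at 31.6, against 0.433 and 0.404 in P28, and the part of this in the 1-day comparison was not tested. Genes described as histones or cyclins were higher in P28 in 7 of 75 (9.33%) and lower in 2 (2.67%) in the control, at a median of 0.14. Over all genes tested the shares were 4.59% and 3.40%, and 3 of the 7 were listed at 0 in HHZ. The list is no clean marker of dividing cells: its member histone H1-3 (LOC_Os04g18090) had 190 FPKM in the HHZ control and 1954 after 1 day of drought.

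The drought columns share no library with the control columns and therefore show which control differences were also found elsewhere. After 1 day 1391 of 18243 genes (7.62%) were past the rule, 685 (3.75%) higher in P28 and 706 (3.87%) lower, and after 3 days 1283 of 18214 (7.04%), 687 (3.77%) higher and 596 (3.27%) lower. Of the 857 genes higher in P28 in the control, 379 (44.2%) were past the rule in the same direction after 1 day, 392 (45.7%) after 3 days and 299 (34.9%) on both. Of the 635 lower genes, 310 (48.8%), 290 (45.7%) and 245 (38.6%) were. The opposite direction was seen past the rule in 15 and 13 of the higher genes and in 19 and 14 of the lower. On neither day were 385 of the higher and 280 of the lower genes past the rule in the same direction. Their control differences were smaller, with medians of 1.30 and -1.34 against 2.07 and -2.21 for genes past it on both days. Under 1 FPKM in both parents on both days were 145 of the 385 and 108 of the 280.

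Among the genes past the rule on neither drought day, but above 1 FPKM there, was LOC_Os07g13950, a Tim10/DDP family protein, a class of small mitochondrial import chaperones. It had 0 FPKM in HHZ and 45.1 in P28 when well-watered, but HHZ had 15.3 and 41.2 on the drought days, against 9.47 and 28.1 in P28 (limma adjusted p = 0.629). LOC_Os01g41565, described as repressor of lrx1 after an Arabidopsis cell wall gene, kept its difference instead, listed at 0 in all HHZ columns and at 30.8, 41.7 and 47.8 in P28 (limma 5.34, SE 0.15, adjusted p = 7.72e-06).

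The share of genes past the rule varied over the 12 chromosomes, and some of these genes were adjacent. Chromosome 3 had the lowest share past the rule, 4.03% of 2483 genes, and chromosomes 11, 4 and 8 the highest, 10.9% of 943, 10.7% of 1624 and 10.4% of 1235. For 852 genes higher in P28 the next tested gene along the chromosome could be examined, and it was also higher in 133 cases (15.6%), while 4.58% of all placed genes were higher. For lower genes it was also lower in 120 of 628 cases (19.1%), against 3.37%. These shares are descriptions, since tandem copies can share reads.

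**Figure D5:**
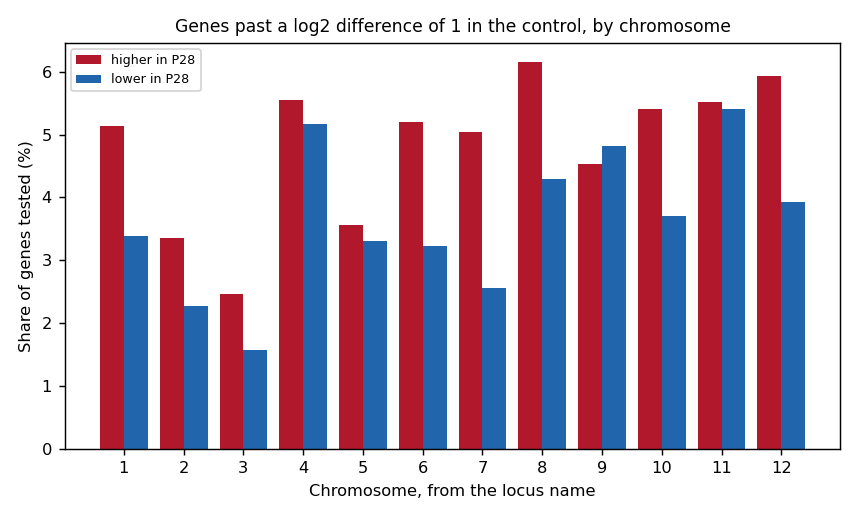
Share of the genes tested on each chromosome (x axis) that were higher (red) or lower (blue) in P28 by at least 1 on the log2 scale in the control (y axis, percent). Both bars are shortest on chromosome 3, at 2.46% and 1.57%, and the lower bar is tallest on chromosome 11, at 5.41%.

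There were 13 runs of at least 4 consecutive tested genes in the same direction, 10 lower in P28 and 3 higher, with 63 genes in all. A run of 6 genes without description from LOC_Os01g71540 to LOC_Os01g71630 was lower in P28 at a median of -3.57, with all 6 past the rule on each drought day as well. The run from LOC_Os06g05410 to LOC_Os06g05450 held 6 genes without description that were higher, at a median of 2.83, with 5 past the rule on each drought day. From LOC_Os04g30030 to LOC_Os04g30180 ran 6 lower genes, mostly receptor kinases, at a median of -3.20, of which 2 were past the rule on each drought day. The leucine-rich repeat run from LOC_Os09g19380 to LOC_Os09g19500 held 5 lower genes at a median of -5.03, with 3 past the rule after 1 day and 0 after 3 days.

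Genes seen in 1 parent only were counted over all conditions. An FPKM of at least 1 in every P28 column and of exactly 0 in every HHZ column was found for 85 genes, and the reverse for 54. The columns of H471, which took no part in this choice, had at least 1 FPKM in all conditions for 3 of the 85 genes seen only in P28 (3.53%) and were listed at 0 throughout for 50 (58.8%). Of the 54 genes seen only in HHZ, H471 had at least 1 FPKM in all conditions for 37 (68.5%) and was at 0 throughout for 0. H471 met neither condition for 32 of the genes of P28 and 17 of those of HHZ. Some of the 17 were on in its control only, such as LOC_Os05g11064 (14.7, 0.145 and 0.0222 FPKM) and LOC_Os07g32129 (7.84, 0 and 0). Others were not, such as LOC_Os12g39250 (0, 2.00 and 4.09). A control value of H471 thus need not hold on the drought days. The 32 genes of P28 varied as well: in H471 LOC_Os01g71380 had 0.942, 8.90 and 6.92 FPKM, whereas LOC_Os01g05530 had 0.0454, 0 and 0. The 3 genes of P28 with at least 1 FPKM in every H471 column were LOC_Os04g31140, LOC_Os06g01290 and LOC_Os11g26350. In H471 they had 2.51, 5.32 and 4.42 FPKM, 1.13, 3.84 and 4.60, and 2.499, 17.5 and 9.54, in that order. Of these, LOC_Os06g01290 is described as a Sec-independent protein translocase component, of the system that moves folded proteins into the thylakoid. Genes seen only in P28 included the wall-associated kinase LOC_Os12g16520, the P450 LOC_Os01g41800 and NB-ARC genes such as LOC_Os08g16450, and those seen only in HHZ included the F-box gene LOC_Os01g28300, with 16.5 FPKM in the HHZ control, and the glycosyltransferase LOC_Os10g24090.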

How the data were processed

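Total RNA of leaves was sequenced from 18 libraries. Per the labels and the study's methods, the authors trimmed reads, aligned them with TopHat to the MSU rice genome and computed FPKM with Cufflinks. Tool versions: not given in the sources used here.

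In the deposited table, FPKM hold 1 value per gene for each of 9 genotype and condition groups, each pooling 2 libraries. The fragments behind each value are unknown, so no counting interval is given. All 9 columns were matched by header and 0 were left unmapped.

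A pseudocount of 1 was added and values taken to log2. Genes reaching 1 FPKM in either parent were compared by the size rule of 1. limma 3.58.1 (R 4.3.3) with a trend was fitted to all 9 columns, on additive terms for genotype and condition, with 4 residual degrees of freedom, and was tested on simulated data. Because the conditions replace replicates, a difference that varies with drought counts as error in this fit, also where it is H471 that varies. Other tables were made with Python 3.11.15 and pandas 2.3.3.

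Of the genes tested, those named were, in each direction, the 12 with the largest difference among described genes at FPKM 10 or more, the 8 among described genes at 5 or more in both parents, the 5 with the largest limma difference at 10 or more, the 2 largest and 2 smallest of each list at 5 or more, and every locus list member at 1 or more. Other genes, among them further list members past the rule, members of runs and genes seen in 1 parent only, were named after their values were seen. The members, rules and lists (22 by words in the description, 9 by locus) were chosen with earlier results of these data known, and 5 word patterns were corrected after they matched unrelated descriptions. The descriptions follow Arabidopsis proteins. Promoter and protein sequences were not used here.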

Additional observations from a re-analysis of the deposited data

Results flagged for a closer look

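For 9 described genes with at least 10 FPKM in 1 control column, the P28 minus HHZ difference was past the size rule in the control and past it in the other direction on a drought day. These genes were chosen after their values were seen, each value rests on 1 pooled column per parent, and the difference between conditions was not tested. LOC_Os01g28450, a pathogenesis-related protein 1 gene and a marker of defence, was lower in P28 in the control at -1.46, with 682 FPKM in HHZ and 247 in P28, and higher at 1.17 after 3 days. LOC_Os12g38650, a TOM5-like subunit of the mitochondrial import receptor, went from -1.38 to 1.79 after 3 days. LOC_Os12g37260, a lipoxygenase, which oxidizes polyunsaturated fatty acids, was at -1.57 in the control and 2.61 after 1 day, when HHZ had 32.9 FPKM and P28 205. The HHZ column after 1 day is also the one in which endosperm genes were higher, and the part of this was not tested. After 1 day the direction was also turned for the subtilase LOC_Os01g58280 (-1.57 in the control, 1.63), the bZIP factor LOC_Os03g19370 (-1.43, 1.02) and the RAMP4-like protein LOC_Os12g32950 (-1.05, 1.41). After 3 days it was turned for the SC35-like splicing factor LOC_Os07g43950 (-1.92 in the control, 1.17), the leucine-rich repeat kinase LOC_Os11g33380 (-3.65, 2.88) and, from higher to lower in P28, the metallothionein LOC_Os03g17870 (1.39, -1.58).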

How the results depend on the processing

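The control count of 1492 changed by less than 1.5 times with a pseudocount of 0.1 (2161), median-ratio scaling and scaling to equal sums (1523), and not at all with no filter. It was 707 with at least 1 FPKM in both parents, 924 with at least 5 in either, 768 at a size rule of 1.5 and 3057 at 0.6. The same 4 settings gave 603, 806, 706 and 2776 in place of 1391 after 1 day, and 563, 748, 666 and 2645 in place of 1283 after 3 days. limma called 1366 genes, but 817 without the control columns, 442 without the 1-day columns and 479 without the 3-day columns, fits that have fewer columns, and 2074 at an adjusted p under 0.1. The 139 genes seen in 1 parent only became 38 with a floor of 5 FPKM and 217 with a ceiling of 0.1. All 152 named genes kept their side of the rule under both scalings. Their direction was kept too, except for clock genes near 0: GI (LOC_Os01g08700) went from -0.0067 to 0.00054 with median-ratio scaling and 0.0377 with equal sums, and PRR73 (LOC_Os03g17570) from -0.0139 to 0.0302 with equal sums. None was reversed with a pseudocount of 0.1, which brought 5 more past the rule and moved the share of 9 lists by over 1.5 times. No paired analysis was possible because the libraries with shared numbers are pooled in each column, and for the same reason no library could be left out. A level near 1 FPKM carries few fragments, so differences of low genes and values listed at 0 are the least certain.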
